A study of Danio rerio with 8 samples.

Results

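The genes foxj1a, foxj1b, rfx2, rfx3 and tp73 encode transcription factors of motile ciliogenesis. They were picked by name, and 5 of 5 were found by symbol among the 20409 genes measured. RNA was sequenced from whole zebrafish larvae at 4 days post fertilization (dpf). Mutants were compared with sibling controls. Mutants were homozygous (-/-) for smh (schmalhans), an allele of the dynein arm gene ccdc103 with which motile cilia are built but do not beat. Controls were their siblings, wild-type and heterozygous (+/-) larvae pooled in proportions that the labels do not give. Both genotypes came from the same 4 clutches and received no treatment. Each library was a pool of 30 larvae, with 1 mutant and 1 control library per clutch, which gave 4 mutant and 4 control libraries. Mutants were recognised by a tail that curls downward.

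Motile cilia are switched on by a small set of factors. FOXJ1, a forkhead protein, activates genes of the motile axoneme, the microtubule core of the cilium with its dynein motors. RFX2 and RFX3 bind the X-box, a promoter element of ciliary genes, and act on motile and immotile cilia. In mouse, the p53 relative TP73 acts upstream of FOXJ1 in cells with many cilia. Zebrafish have a pair of FOXJ1 genes. foxj1a is known from the floor plate, the pronephros (the larval kidney) and the embryonic organ of left and right, and foxj1b from the ear and the brain ventricles.

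Levels are given as log2 CPM, taken to be the log2 of read counts scaled to one library total. The authors had already made the distribution of values nearly the same in all 8 libraries, so that each sums to between 997999 and 998006 CPM. Sequencing depth is unknown. CPM does not correct for transcript length, so levels are compared between libraries for the same gene, and CPM ranks genes only to choose which list members to name. ccdc103 itself was at 0.33 to 1.00 log2 CPM in mutants and 0.40 to 1.00 in controls, and its level does not check the labels. Markers of the main tissues were present as a whole larva requires. Skeletal muscle markers summed to 37800 to 41100 CPM in mutants and 36700 to 39800 CPM in controls, and neuronal markers to 2030 to 2560 CPM in mutants and 1850 to 2450 CPM in controls. The control library of clutch 1 stood apart from the other controls more often than any other library did from its own group, in 6.05% of tested genes, against 0.62 to 0.834% for the other controls and 0.705 to 2.89% for the mutant libraries. A library is counted as apart where its gap to the nearest of the other 3, divided by the range of the 4, exceeds Dixon's 95% critical value.

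Among the 5 factors, foxj1a rose strongly in mutants. foxj1b rose less and passed the test only in fits with a term for clutch. rfx2, rfx3 and tp73 did not pass in any fit. A gene was called where its limma p, adjusted by Benjamini-Hochberg over all 20154 genes tested, was under 0.05. Without a term for clutch, 1 of the 5 genes was higher in mutants, beside 0.0546% of all genes tested (0.0744% in either direction). With clutch as a block, which compares each mutant library with the control of its own clutch, 2 of the 5 were higher, beside 0.948% of all genes tested (2.34% in either direction). None of the 5 was lower, beside 0.0198% of all genes without the block and 1.39% with it. A difference of at least 0.5 log2 units was found for 2 of the 5 and 1.11% of all genes, and one of at least 1 for 1 of the 5 and 0.174% of all genes.

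**Figure D1:**
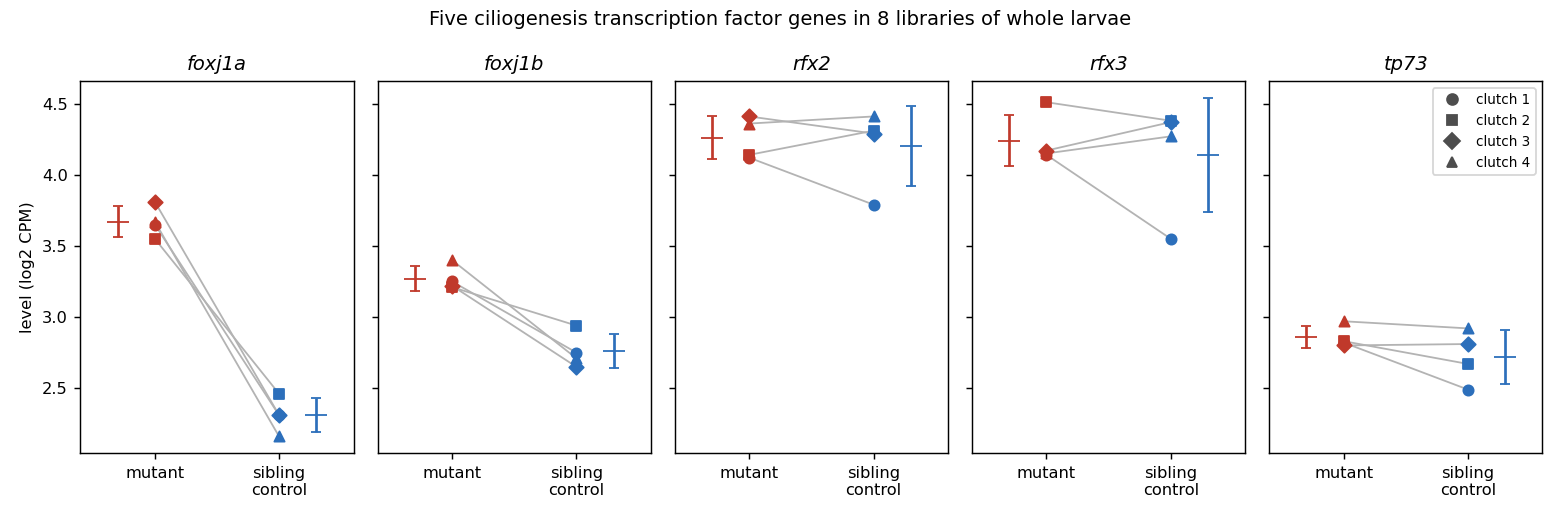
Levels (log2 CPM) of the 5 genes in each library, with mutants in red at the left and sibling controls in blue at the right of each panel. Symbols mark the clutch, grey lines join libraries of the same clutch, and bars beside the points are the mean ± SD (n = 4). Mutants and controls do not overlap for foxj1a and foxj1b and overlap for rfx2, rfx3 and tp73.

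foxj1a (NCBI gene ID 767737) had 3.65, 3.55, 3.81 and 3.67 log2 CPM in the mutants of clutches 1 to 4, against 2.31, 2.46, 2.31 and 2.16 log2 CPM in the controls. All 4 mutant libraries lay above all 4 controls, with 1.09 log2 units between the lowest mutant and the highest control. Only 1 of the 20154 genes tested had a wider gap in that direction. The means were 3.67 ± 0.11 in mutants and 2.31 ± 0.12 in controls (SD, n = 4), or about 12.7 and 4.96 CPM. The rise of 1.36 log2 units had an SE of 0.12 and a 95% confidence interval of 1.1 to 1.62 in limma (2.14-fold to 3.08-fold, adjusted p = 0.00144). By limma's unadjusted p it ranked 2nd of all genes tested, and by size of the rise it ranked 11th. The 4 clutches gave differences of 1.34, 1.09, 1.50 and 1.51 log2 units, the smallest in clutch 2, whose control had the highest level and whose mutant had the lowest. An exact permutation test (two-sided, all 70 ways to arrange the genotypes, without regard to clutch) gave p = 0.0286, the smallest that 4 against 4 libraries allow. Exchange within clutches allows no exact permutation p under 0.125, so it cannot pass for any gene. These are whole larvae, so more cells that express a gene and more of its RNA per cell cannot be told apart.

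foxj1b (gene ID 494105), the paralog, had 3.25, 3.21, 3.22 and 3.40 log2 CPM in mutants, against 2.75, 2.94, 2.65 and 2.71 log2 CPM in controls. Here too the groups did not overlap, with 0.27 log2 units between the control of clutch 2, the highest control, and the mutant of that clutch, the lowest mutant. Such a separation with mutants higher was found for 2 of the 5 factors and for 1.87% of all genes tested. The means were 3.27 ± 0.09 in mutants and 2.76 ± 0.12 in controls (SD, n = 4). The difference was 0.51 log2 units (1.42-fold), with a 95% confidence interval of 0.25 to 0.76 in limma. It did not pass across all genes without the block (limma adjusted p = 0.367) but did so once clutch was a block (limma adjusted p = 0.0127, interval 0.29 to 0.73). Clutches 1 to 4 gave 0.50, 0.27, 0.57 and 0.69 log2 units. Its levels in mutants and in their control mates did not rise together over the clutches (Pearson's r = -0.38). Pairing by clutch thus did not narrow the spread of this gene itself. The exact permutation p was 0.0286, again the smallest possible. With the block, the call was lost without clutch 4 (limma adjusted p = 0.121) and in the fit without a variance trend and robust estimation (limma adjusted p = 0.113).

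Thus 2 of the 5 factors were higher in mutants in 4 of 4 clutches, which was true of 11% of all genes tested. For both paralogs clutch 2 had the smallest difference, and in both its control was the highest of the controls and its mutant the lowest of the mutants.

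rfx2 (gene ID 503590) had 4.12, 4.14, 4.41 and 4.36 log2 CPM in mutants, against 3.79, 4.31, 4.29 and 4.41 log2 CPM in controls. The groups overlapped, and the control of clutch 1 was the lowest of all 8 libraries. The means were 4.26 ± 0.15 in mutants and 4.20 ± 0.28 in controls (SD, n = 4). The difference of 0.06 log2 units was within the spread between libraries (limma 95% interval -0.26 to 0.37, adjusted p = 1.0), and mutants were higher in 2 of 4 clutches. Without the control of clutch 1 the difference was -0.08. The interval does not reach the rise seen for foxj1a.

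rfx3 (gene ID 570989) had 4.14, 4.51, 4.17 and 4.15 log2 CPM in mutants, against 3.55, 4.38, 4.37 and 4.27 log2 CPM in controls. The control of clutch 1 was 0.59 log2 units below the mutant of its clutch, while the differences in clutches 3 and 4 were -0.20 and -0.13. The means were 4.24 ± 0.18 in mutants and 4.14 ± 0.40 in controls (SD, n = 4), and the difference was 0.10 log2 units (limma 95% interval -0.30 to 0.50, adjusted p = 1.0). Without the control of clutch 1 it was -0.10. The sign of the difference for rfx2 and rfx3 therefore rested on that library, and the intervals leave room for changes of up to 1.29-fold upward for rfx2 and 1.41-fold for rfx3. With clutch as a block the interval was -0.13 to 0.24 for rfx2 and -0.15 to 0.35 for rfx3.

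tp73 (gene ID 368221) had 2.82, 2.83, 2.80 and 2.97 log2 CPM in mutants, against 2.49, 2.67, 2.81 and 2.92 log2 CPM in controls. Mutants varied little, and the controls of clutches 3 and 4 lay within the range of the mutants. The means were 2.86 ± 0.08 in mutants and 2.72 ± 0.19 in controls (SD, n = 4). The difference of 0.13 log2 units (limma 95% interval -0.15 to 0.42, adjusted p = 1.0) did not pass in either fit (adjusted p = 0.648 with the block). Mutants were higher in 3 of 4 clutches, by 0.33 in clutch 1 and 0.16 in clutch 2, with 0.04 in clutch 4 and -0.01 in clutch 3. The exact permutation p was 0.229 for tp73 and 0.771 for both rfx2 and rfx3.

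**Figure D2:**
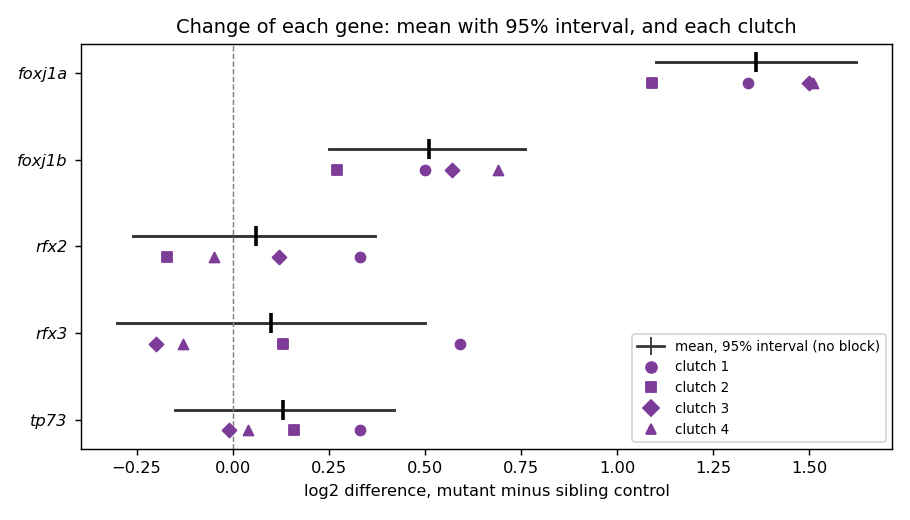
Difference between mutant and sibling control (log2 units) for each gene. Bars are the limma mean with its 95% confidence interval without the clutch block, and purple symbols are the differences within each of the 4 clutches. The intervals of foxj1a (1.1 to 1.62) and foxj1b (0.25 to 0.76) lie above 0, and those of rfx2, rfx3 and tp73 include 0.

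Whether foxj1a changed more than each of the other 4 was tested on the difference of log2 CPM between the genes within each library. Only the change of this difference between genotypes can be read, since its size may depend on transcript length. foxj1a minus foxj1b was 0.40, 0.34, 0.59 and 0.27 in the mutants of clutches 1 to 4, against -0.44, -0.48, -0.34 and -0.55 in the controls. The relative level of foxj1a to its paralog was thus higher in every mutant library, by 0.85 log2 units on average and by 0.82 to 0.93 within clutches. This range is narrower than that of either gene alone (1.09 to 1.51 for foxj1a and 0.27 to 0.69 for foxj1b). Against rfx2 the shift was 1.30 log2 units (1.01 to 1.56 within clutches), against rfx3 1.26 (0.75 to 1.70) and against tp73 1.23 (0.93 to 1.51). In each of these 4 comparisons mutants and controls did not overlap, and the exact permutation p (two-sided) was 0.0286, the smallest possible, also after Benjamini-Hochberg adjustment over the 4. foxj1a, the reference, had the largest difference of the factors in these same data. The 4 tests share its values, so they are not independent of each other or of its rise. Exchanging genotypes only within clutches cannot give a p under 0.125.

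**Figure D3:**
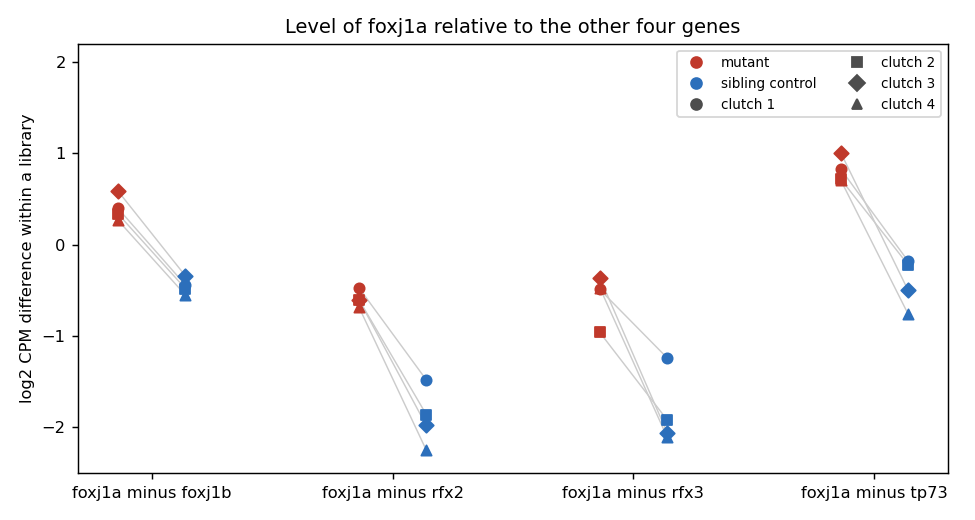
Level of foxj1a minus that of each of the other 4 genes in the same library (log2 CPM difference), with mutants in red left of sibling controls in blue. Grey lines join libraries of the same clutch, and the mutant is higher in 4 of 4 clutches for each gene.

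The factors also differed in how much they varied between libraries of the same genotype. The pooled SD within groups was 0.11 log2 units for foxj1a and 0.11 for foxj1b, and 6.9% and 5.4% of genes within 0.5 log2 units of their level had a smaller SD (3442 and 3452 genes compared, with a median SD of 0.21 for each). It was 0.14 for tp73, where 15.2% of genes of like level had a smaller SD. For rfx2 it was 0.22 and for rfx3 0.31, with 68.0% and 86.3% of genes of like level below them. The control of clutch 1 gave the lowest level of rfx2, rfx3 and tp73 among all 8 libraries. For foxj1a it equalled the control of clutch 3 to 2 decimals, and for foxj1b it was the second highest control.

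The genes whose levels followed each factor most closely over the 8 libraries were named by Pearson's r of log2 CPM, among 16045 tested genes with a proper symbol. The 8 points share genotype and clutch, so r is a description. For foxj1a they included the axonemal gene cfap45 (r = 0.987), the sugar transporter gene slc5a9 (0.968), the laminin gene lamb1a (0.967) and the ubiquitin ligase gene rnf150a (0.965). slc5a9 averaged 3.46 log2 CPM in mutants and 2.27 in controls, a difference of 1.2, and lamb1a averaged 7.41 in mutants and 7.07 in controls. For foxj1b they included lamb1a (0.960) and lmo7b (0.959). The differences of rnf150a and lmo7b between genotypes were small, at 0.14 and 0.16 log2 units. None of the genes closest to the remaining factors differed by more than 0.22 log2 units either. They were vps37c (0.983), gldn (0.970) and arrdc1b (0.970) for rfx2, wdr47b (0.979), abi1b (0.977) and pwwp2a (0.975) for rfx3, and ranbp3a (0.970), hs6st1a (0.951) and slc5a3b (0.947) for tp73.

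Around the 5 factors, genes of the same pathway were taken from lists. The first list held the programme of cells with many cilia, in which E2F4, E2F5 and MYB switch on the copying of centrioles, the bases of cilia. Of its 16 entries 11 were measured, and gmnc, mcidas, ccno, cdc20b and deup1 were not analysed here. None of the 11 passed in either fit, which covers only part of this programme, since the 5 other entries were not tested. In limma, 1 had an unadjusted p under 0.05 without clutch and 3 had one with it, as had 3.41% and 13.5% of all genes. The median difference was 0.12 log2 units, beside 0.004 over all genes tested. All 11 lay above 0, the smallest by 0.00 log2 units when rounded, beside 51.1% of all genes tested. Of the 11, 5 were higher in mutants in 4 of 4 clutches, beside 11% of all genes tested. The members with the highest CPM, not corrected for length, were e2f4 and myb, which averaged 5.50 and 5.10 log2 CPM in mutants and 5.38 and 5.02 log2 CPM in controls. Chosen after their values were seen, e2f5 and ccdc78, a gene of centriole amplification, were higher by 0.53 log2 units each in 4 of 4 clutches (limma adjusted p = 1.0 for each, 0.292 and 0.141 with the block). In e2f5 mutants had 0.92, 0.69, 0.47 and 1.04 log2 CPM, against 0.40, -0.13, 0.18 and 0.55 in controls.

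Relatives of the factors by family had medians of 0.04 to 0.08. Of 7 measured RFX family genes other than rfx2 and rfx3, none passed in limma, where unadjusted p was under 0.05 for 0 of them (1 when clutch was included), and the median was 0.08. Those with the highest CPM, rfx7b and rfx7a, averaged 6.54 and 5.47 log2 CPM in mutants and 6.46 and 5.45 log2 CPM in controls. Of 25 other forkhead genes, with a median of 0.04, 0 were called by limma without clutch, and 0 had an unadjusted p under 0.05 (2 when clutch was included). In the fit with clutch only foxq1a was called, as lower, beside 1.39% of all genes tested. foxq1a had 4.03, 4.31, 2.98 and 4.09 log2 CPM in mutants, against 4.6, 5.05, 3.39 and 5.05 log2 CPM in controls. It was lower in 4 of 4 clutches while clutch 3 was low in both genotypes, and the difference was -0.67 log2 units (limma adjusted p = 0.000372 with the block and 1.0 without it). The list had 0 calls in the blocked fit without a variance trend and robust estimation. foxj2 and foxj3, the nearest forkhead relatives by name, differed by 0.07 and 0.18. Of 6 genes of the p53 family and its response, with a median of 0.04, only cdkn1a, a cell cycle inhibitor, passed with the block. It was lower by 0.32 log2 units (limma adjusted p = 0.0208 with the block, 1.0 without it), the list had 0 calls in the blocked fit without trend and robust estimation, and 0 of the 6 had an unadjusted p under 0.05 without the block.

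The list of upstream regulators held Notch pathway genes, which limit the number of multiciliated cells in the zebrafish pronephros, and factors that pattern the pronephros. Of 29 measured genes 1 rose without the block, beside 0.0546% of all genes tested, and 2 with it, beside 0.948%. The median difference was 0.03 log2 units, and 16 of the 29 lay above 0.

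The last list held 117 genes chosen by name for the motile axoneme and its assembly, of which 89 were measured. Whether FOXJ1 or RFX proteins act on each of them was not tested. In mutants 1 was higher without the block, beside 0.0546% of all genes tested, and 28 were higher and 1 lower with it, beside 0.948% higher and 1.39% lower of all genes tested. The median difference was 0.50 log2 units, and 79 of 89 lay above 0, beside 51.1% of all genes. Every mutant library lay above every control for 38 of the 89, beside 1.87% of all genes tested. A gene was tested if 4 of 8 libraries reached 0 log2 CPM, which the mutants alone can meet. These counts therefore include genes low in controls, such as rsph9, with 0.40, -1.21, -0.69 and -0.22 log2 CPM in controls. For 0 of the 89 were all controls below 0 with all mutants at or above it. That count misses genes such as rsph9, where every mutant reached 0 and most controls did not. There the mutants alone met the filter, and the counts were not repeated without such genes. The gene that was lower with the block, cfap70, averaged 2.42 log2 CPM in mutants and 3.02 log2 CPM in controls (limma adjusted p = 0.00521). The tektin gene tekt4, which codes for a filament protein of the axoneme, had 2.13, 2.40, 2.43 and 2.29 log2 CPM in mutants, against 1.09, 1.1, 0.82 and 1.28 in controls. The dynein motor gene dnah5l had 3.32, 3.91, 3.76 and 3.72 log2 CPM in mutants, against 2.64, 3.09, 3.10 and 3.16 in controls. The radial spoke gene rsph10b had 1.51, 1.81, 1.39 and 1.63 log2 CPM in mutants, against 0.25, 0.71, 0.62 and 0.18 in controls. These 3 genes did not overlap between genotypes. The dynein motor gene dnah5 had 2.63, 3.26, 3.13 and 3.23 log2 CPM in mutants, against 2.10, 2.70, 2.42 and 2.68 in controls, and its groups overlapped, since the mutant of clutch 1 lay below the controls of clutches 2 and 4. Without the block tekt4 passed (limma adjusted p = 0.0125), and dnah5l, rsph10b and dnah5 passed with it (adjusted p = 0.000409, 0.00292 and 0.0049). Together the 89 genes summed to 389 to 398 CPM in mutants and 296 to 328 CPM in controls. The difference of foxj1a was larger than that of each of these genes except the radial spoke gene rsph9, with 1.38 log2 units (limma adjusted p = 0.0269 with the block and 0.448 in the unblocked fit).

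**Figure D4:**
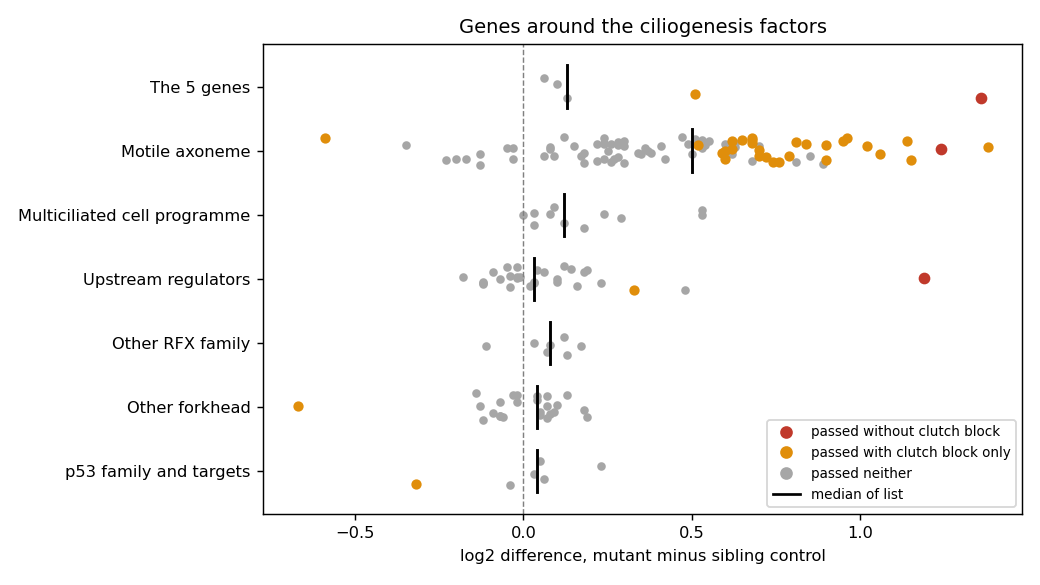
Difference between mutant and sibling control (log2 units) for the 5 genes and for each gene measured in 6 lists around them. Red points passed limma without the clutch block, orange points only with it, grey points in neither, and black bars are list medians. The motile axoneme list has a median of 0.50, and the other 5 lists have medians of 0.03 to 0.12.

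Markers of tissues that can hold cells with motile cilia are given beside these results. The olfactory and hair cell lists are mainly genes of sensory cells, and no list covers the brain ventricles. For comparison, 0.948% of all genes tested were called higher and 1.39% lower with the block. Of 13 pronephric tubule markers, 11 were higher in mutants, with a median of 0.18, and lrp2a, the endocytic receptor megalin, passed with the block (0.44 log2 units, limma adjusted p = 0.014). They summed to 767 to 1020 CPM in mutants and 717 to 957 CPM in controls, and the groups overlapped. The 7 floor plate markers had a median of -0.07 and sums of 111 to 133 CPM in mutants and 112 to 130 CPM in controls, with shha at 4.57 log2 CPM in mutants and 4.61 in controls. The 6 olfactory markers had a median of -0.12, and sums of 35.9 to 41.5 CPM in mutants and 38.1 to 45.0 CPM in controls. Of 11 hair cell markers with a median of -0.01, pvalb9 passed with the block, higher by 0.34 (limma adjusted p = 0.0427). Their sums were 147 to 160 CPM in mutants and 141 to 150 CPM in controls. Some markers of other tissues also differed between genotypes with the block. The 5 exocrine pancreas markers had a median of -0.50 with 5 of 5 below 0, and 4 were lower with the block. They summed to 1120 to 2470 CPM in mutants and 1650 to 3140 CPM in controls. The 5 erythrocyte markers had a median of 0.29 with 5 of 5 above 0, and 3 were higher with the block. They summed to 737 to 1070 CPM in mutants and 573 to 859 CPM in controls. Without the block neither list had a call in limma (0 of 5 and 2 of 5 at an unadjusted p under 0.05), and the sums overlapped between genotypes in both. With the block 1 of 7 muscle markers was lower and 1 of 5 liver markers higher, and none of the neuronal or epidermal markers was called. The marker calls with the block were not rechecked without a variance trend and robust estimation. In that blocked fit the calls over all genes were 50 in place of 472. None of the markers of ciliated tissues was called without the block in limma. There, 1 pronephric marker and 0 others had an unadjusted p under 0.05, and that marker, slc20a1a, was lower in mutants (-0.31 log2 units). With the block 7 of the 13 pronephric markers had one, slc20a1a among them, beside 13.5% of all genes. No measured marker was listed at 0 log2 CPM or below in any library. The part of tissue proportions in the rise of foxj1a and foxj1b was not tested.

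Gene order was taken from RefSeq genes of GRCz12tu, a newer build than the GRCz11 of the data, so no positions are given. foxj1a lies on the chromosome that also carries ccdc103, with 379 tested genes between them, and the other 4 factors lie on other chromosomes. Calls on that chromosome, with foxj1a itself counted among them, made up 0.594% of 1010 tested genes without the block and 5.74% with it. The shares were 0.0489% and 2.17% of 18412 genes on other chromosomes. Of the 50 tested genes nearest to it, 0 passed without the block (limma) and 1 with it, which is 2.0%. That gene, ppp1r27a, is the 24th tested gene on one side, with 5.18 log2 CPM in mutants and 5.63 log2 CPM in controls. The immediate neighbours ubald2 and tsen54 differed by 0.04 and -0.20. Whether linkage to ccdc103 has a part in the rise of foxj1a was not tested.

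**Figure D5:**
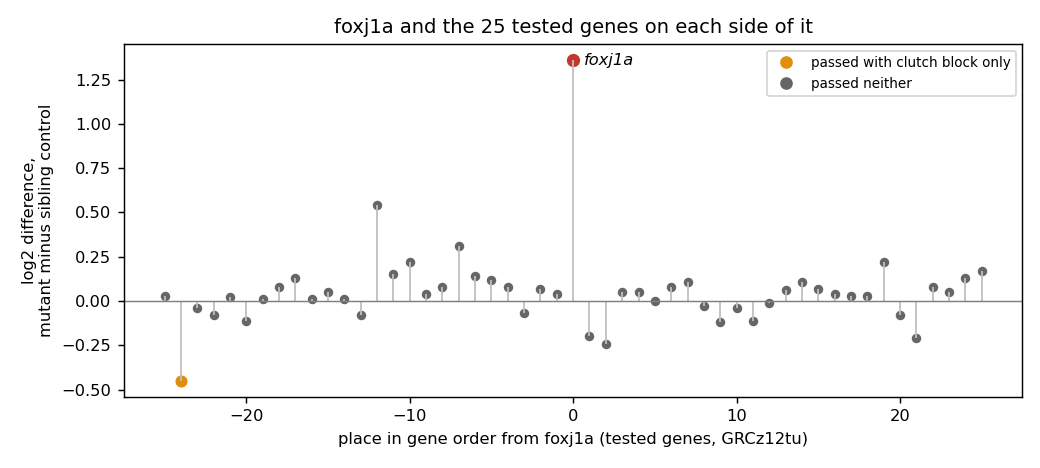
Difference between mutant and sibling control (log2 units) for foxj1a (red) and its 25 nearest tested genes to each side, by place in gene order. The orange point, ppp1r27a at -0.45, passed limma only with the clutch block, and the grey points passed in neither fit.

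The authors' deposited table gives the same differences for the 5 factors, 1.36 for foxj1a, 0.51 for foxj1b, 0.06 for rfx2, 0.10 for rfx3 and 0.13 for tp73. In the authors' deposited table the adjusted p is 7.73e-06 for foxj1a, the second smallest p of 20409 genes, and 0.108 for foxj1b. Its mean levels are not those of the 8 libraries, for example 2.85 in the authors' deposited table for foxj1a, where the 8 libraries average 2.99.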

How the data were processed

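Per the labels' protocols, total RNA of pooled larvae was sequenced by BGI on DNBSEQ and reads were filtered with SOAPnuke 1.5.2. The tools HISAT2 2.0.4, Bowtie2, RSEM and limma and the genome build GRCz11 are listed, without their roles, per the submitters' processing notes. The authors deposited a table of log2 values per library. Its CPM unit is inferred, since the unlogged values total 997999 to 998006 in every library and some values are negative. A unit corrected for transcript length could have the same total, so the unit is not settled. The near-identical quantiles show an equalized distribution. The authors also deposited a comparison of genotypes with log2 fold changes, p-values and a moderated statistic and log odds score, of which the scores were not used. No counts are in these tables, so depth and counting precision are unknown.

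Of 20409 genes, 20154 reached 0 log2 CPM in at least 4 of 8 libraries and were tested with limma 3.58.1 in R 4.3.3 (linear model of genotype, mean-variance trend, robust estimation, Benjamini-Hochberg over all genes). Alternatives were a clutch block, all genes unfiltered, only genes that average 5 CPM, rescaling by median ratios, limma without trend and robustness or with array weights, and leaving out each library and clutch. The labels state that numbers are clutches, and deviations from group means correlated by 0.72, 0.50, 0.50 and 0.30 between libraries of clutches 1 to 4. Single values were tested by exact permutation. The members and lists were chosen with earlier results of these data known. Named genes were the members, the called genes of each list (up to 4 for calls with the block, or the 2 with the highest CPM where none was called) and the genes with the highest r to each member. foxj2, foxj3, rsph9, cfap70, e2f5, ccdc78 and single marker genes were picked with their values in view. List symbols were matched directly or through RefSeq synonyms. On simulated data of 20154 genes with 200 changed, the fit without the block recovered 63% of changes of 1 log2 unit and 5% of changes of 0.5 and called 0 unchanged genes. The fit with the block recovered 76% and 44% and called 1 unchanged gene. Sequences of the genes were not analysed here. Some genes that the naming rule selects are not reported here.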

Additional observations from a re-analysis of the deposited data

Results flagged for a closer look

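In groups of 4 libraries, a library was singled out where its gap to the nearest of the others as a share of the group's range exceeded Dixon's 95% critical value. This was done for the 10 combinations of 5 genes and 2 genotypes, of which 3 met it, and chance alone gives about 1 in 20.

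For rfx3, the mutant of clutch 2 was high at 4.51 log2 CPM, where the other mutants had 4.14 to 4.17, and the control of clutch 1 was low at 3.55, where the other controls had 4.27 to 4.38. For tp73, the mutant of clutch 4 was high at 2.97 log2 CPM, where the other mutants had 2.80 to 2.83, and its clutch mate was the highest of the controls at 2.92. For rfx2, the control of clutch 1, at 3.79 log2 CPM, came close to the limit, with a gap of 0.814 of the range. No library was singled out for foxj1a or foxj1b.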

How the results depend on the processing

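The difference of foxj1a ranged from 1.31 to 1.45 log2 units over 25 alternatives and passed in 23 of them. Its call was lost without clutch 3 or clutch 4 in the fit without the block (limma adjusted p = 0.0547 and 0.0695), and leaving out single libraries gave 1.31 to 1.41 (adjusted p up to 0.012). foxj1b ranged from 0.45 to 0.59 and passed in 6 of 25, all with clutch as a block, at 0.51 with the block alone, with it and a filter on a mean of 5 CPM (limma adjusted p = 0.0166) and with it and median-ratio rescaling (adjusted p = 0.017). Its blocked values without single clutches were 0.51, 0.59, 0.49 and 0.45. rfx2 and rfx3 turned to -0.01 and -0.06 with array weights, to -0.08 and -0.10 without the control of clutch 1, and to -0.03 and -0.06 without clutch 1 in the fits with and without the block. Over single libraries left out they ranged from -0.08 to 0.12 and from -0.10 to 0.18, and over clutches from -0.03 to 0.13 and from -0.06 to 0.20. tp73 stayed between 0.05 and 0.20 and passed in none of 25. Median-ratio rescaling moved libraries by at most 0.0418 log2 units, since the authors had already equalized the distributions, so it is a weak check.

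The count of genes called, 15, became 472 with the replicate block, 50 with the block and no trend or robust estimation, 360 with the block and the 5 CPM filter, 434 with the block and rescaling, 7 with that filter alone and 41 with array weights. It ranged from 7 to 21 without single libraries, with 7 without the mutant of clutch 4, 8 without that of clutch 3, and 9 without either library of clutch 2. Without clutches 1 to 4 it was 25, 1, 1 and 0, and with the block 419, 235, 447 and 178. The axoneme list, with 1 call, had 29 with the block and with the block and rescaling, 11 with the block and no trend, 7 with the block and that filter, 0 with that filter alone, 5 without trend and robust estimation, 4 with array weights, 0 to 1 without single libraries or clutches, and 24, 11, 19 and 12 with the block without clutches 1 to 4. The 5 CPM filter takes genes of low level out of the test, among them tekt4 (mean 2.31 log2 CPM in mutants and 1.07 in controls). Lower counts with it can therefore come from genes no longer tested. With the block, the upstream list had 2 calls in place of 1, and the forkhead and p53 lists 1 in place of 0. These counts were the same with the block and either the filter or rescaling, but were 1, 0 and 0 with the block and no trend or robust estimation, and over clutches left out with the block the upstream list had 1 to 2 and the p53 list 0 to 1. Without the block, leaving out clutches gave 0 to 1 upstream calls.

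The shifts of foxj1a against foxj1b, rfx2, rfx3 and tp73 kept their sign throughout. The replicate block left them at 0.85, 1.30, 1.26 and 1.23, but within-clutch exchange allows no exact permutation p under 0.125 and leaving out a clutch none under 0.1, so those tests cannot pass. Against rfx3 the adjusted exact permutation p was 0.0571 without the mutant of clutch 1, 3 or 4, and the range was 1.17 to 1.46 over libraries and 1.12 to 1.43 over clutches. The corresponding ranges were 0.79 to 0.89 and 0.83 to 0.86 against foxj1b, 1.19 to 1.44 and 1.22 to 1.40 against rfx2, and 1.11 to 1.31 and 1.13 to 1.33 against tp73. The cause of these changes was not tested. Depth is unknown, and there are only 4 libraries per genotype. With that number of libraries, the fits of simulated data found 5% of changes of 0.5 log2 units without the block and 44% with it.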
